A study of Mus musculus with 6 samples.

Results

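The miR-26 family of mouse comprises 5 mature microRNA (miRNA) sequences. In the table's names, where mmu stands for mouse, mmu-miR-26a-5p had 78540 reads, mmu-miR-26b-5p 2505, mmu-miR-26a-1-3p 4, mmu-miR-26a-2-3p 20 and mmu-miR-26b-3p 1. They were taken by name from a table of small RNA read counts, as all arms and copies of miR-26a and miR-26b, and are 5 of 1963 distinct mouse sequences counted. The RNA was that of liver from mice given AAV9, an adeno-associated virus that serves to carry genes into tissues. In the Cre group the vector held Cre recombinase behind the promoter of Tnnt2, the cardiac troponin T gene, which is used to direct expression to heart muscle cells, and in the Cre-miR122 group it also held an element named miR122. The labels do not say what this element encodes, and they give no strain, age, dose or time after injection. They name 3 libraries of each group. Only the counts of replicate 2 of the Cre-miR122 group were used, and the remaining 5 libraries were not analysed here. All values therefore describe 1 library without replicate or control, and the groups could not be compared.

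The miR-26 genes lie in introns of the Ctdsp genes, which encode small phosphatases acting on the C-terminal domain of RNA polymerase II, and each miRNA is made from the transcript of its host. A hairpin in that transcript is cut into a duplex of a 5p and a 3p strand, of which usually 1 strand is kept in an Argonaute protein and pairs with target mRNAs through its seed, bases 2 to 8. A known target of miR-26 is the mRNA of the histone methyltransferase Ezh2. miR-26a is often low in liver cancer, and its delivery to mouse liver has been used against liver tumours. The uridylyltransferase Zcchc11 is known to add uridines to the 3' end of miR-26.

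The 3 hairpins, from RefSeq on GRCm38.p6, are shown because they contain all 5 members. Capitals mark the mature 5p and 3p arms, written 5' to 3'.
Mir26a-1: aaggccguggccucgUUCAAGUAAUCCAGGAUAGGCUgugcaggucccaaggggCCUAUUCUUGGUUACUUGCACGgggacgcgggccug
Mir26a-2: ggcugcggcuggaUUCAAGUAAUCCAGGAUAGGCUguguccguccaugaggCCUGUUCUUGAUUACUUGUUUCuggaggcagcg
Mir26b: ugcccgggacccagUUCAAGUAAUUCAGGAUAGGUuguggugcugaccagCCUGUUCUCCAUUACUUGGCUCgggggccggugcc
Mir26a-1 (ENSMUSG00000065513.1) occupies 119031796 to 119031885 of chromosome 9, plus strand. This is intron 5 of Ctdspl in its principal transcript by GENCODE M21, on GRCm38, the assembly also called mm10. Mir26a-2 (ENSMUSG00000065430.1) occupies 126995530 to 126995613 of chromosome 10, plus strand. It is in intron 5 of the principal transcript of Ctdsp2 and in the noncoding part of an exon of another Ctdsp2 transcript. Mir26b (ENSMUSG00000065468.1) occupies 74394310 to 74394394 of chromosome 1, plus strand, in intron 4 of the principal transcript of Ctdsp1. No gene other than the host overlaps any of the 3, and each host has the same strand as its miRNA.

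The mature sequences from RefSeq show which members can share targets. All 5 matched an entry of the count table, and the seed is in capitals.
miR-26a-5p: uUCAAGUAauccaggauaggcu
miR-26b-5p: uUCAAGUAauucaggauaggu
miR-26a-1-3p: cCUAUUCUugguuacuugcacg
miR-26a-2-3p: cCUGUUCUugauuacuuguuuc
miR-26b-3p: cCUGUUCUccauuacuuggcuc
The 5p arms of miR-26a and miR-26b have the same seed, and no other mouse sequence in the table has it. Over the 21 bases that both entries hold they differ by C11T and C21T, with positions counted from the 5' end of miR-26a-5p. The 3p arms fall into 2 seeds. miR-26a-2-3p and miR-26b-3p share 1 seed, with T9C, G10C, T19G and T20C outside it, whereas miR-26a-1-3p differs from miR-26a-2-3p within the seed by A4G and outside it at 5 bases, G11A, C19T, A20T, C21T and G22C. By seed, copy 2 of miR-26a thus groups on the 3p side with miR-26b and not with copy 1. Among mouse sequences miR-6932-3p and miR-7039-3p have the same seed as miR-26a-2-3p and miR-26b-3p, and both had 0 reads, under the floor of 3 reads used here.

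The library held 8163802 reads over the distinct sequences of the table, which lists entries of many species, and 6661069 of these reads were on mouse entries, the denominator for percentages of mouse reads. Intervals in parentheses are exact 95% intervals. They cover counting error only, since 1 library was analysed and PCR copies of a molecule could not be removed. Against the label liver, 4 of 4 hepatocyte markers had reads, from 4017 to 3856275 and with 62.6% of mouse reads together. Most of this sum was miR-148a-3p at 57.9%, with miR-122-5p at 3.54%. The striated muscle markers also had reads in 6 of 7 cases and together held 15.8%, with miR-208a-3p, a heart muscle miRNA, at 0. Most of this sum was miR-1a-3p at 14.7%, more than miR-122-5p. Next came miR-206-3p with 68854 reads or 1.03%. Lower were miR-133a-3p with 915 reads, miR-499-5p with 251, miR-133b-3p with 20 and miR-208b-3p with 6. The endothelial, stellate and mesenchymal, and blood and immune markers held 0.908%, 2.10% and 0.0459%. All these marker values are by mouse entries alone. With forms of other ends added, as described below, miR-148a-3p held 48.3% of the reads so counted, miR-1a-3p 13.3% and miR-122-5p 8.53%. In that counting miR-133a-3p went from 915 to 11609 reads. The miR-26 family is made in many cell types, and the part of these cells in its reads was not tested.

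The 5p arms carried nearly all reads of the family, and miR-26a-5p most of these. miR-26a-5p, the main member, had 78540 reads or 1.18% of mouse reads (1.17 to 1.19) and ranked 9 among mouse sequences, between let-7g-5p with 91306 and miR-192-5p with 72085 reads. The intervals of these neighbours do not overlap that of miR-26a-5p. miR-26b-5p had 2505 reads or 0.0376% (0.0361 to 0.0391) and ranked 46, between miR-486a-5p with 2549 and miR-10b-5p with 2499 reads, from which it did not differ beyond counting error. The 3p arms, known as passenger strands, were near the limit of detection. miR-26a-2-3p had 20 reads, miR-26a-1-3p had 4 and miR-26b-3p had 1, against a floor of 3 reads. The order of miR-26a-1-3p and miR-26b-3p is within counting error. The 5 members together held 81070 reads, 1.22% of mouse reads (1.21 to 1.23), of which miR-26a-5p made up 96.9% and miR-26b-5p 3.09%.

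**Figure D1:**
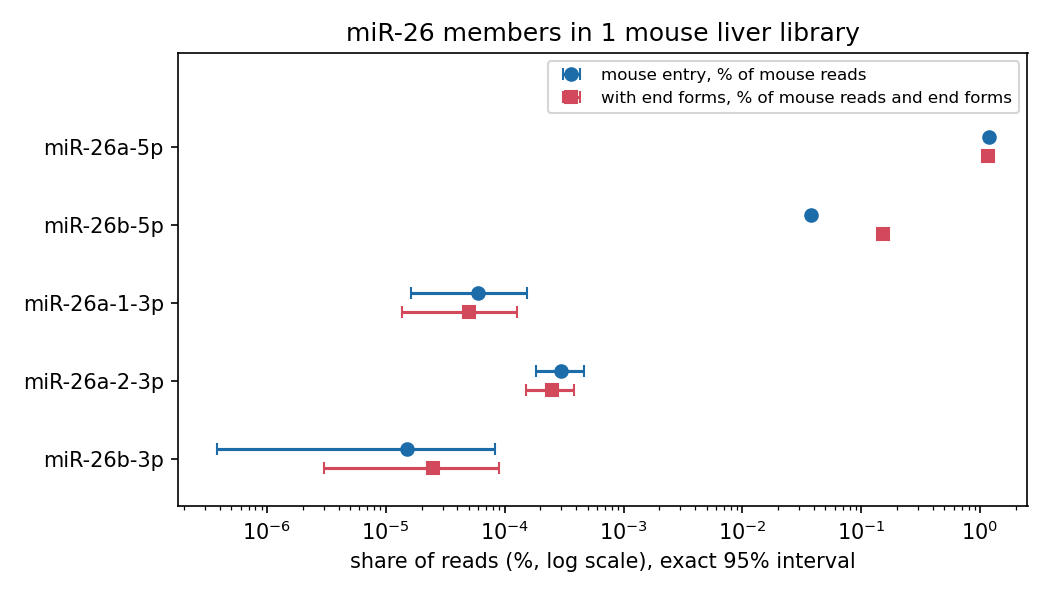
Share of reads (percent, log scale) of the 5 miR-26 members in the 1 library, by the mouse entry (blue circles) and with end forms (red squares), with exact 95% intervals of counting error. The 5p arms lie at 0.0376% or above and the 3p arms below 0.000464%, and miR-26b-5p is the member that moves most between the countings.

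The count of a member depends on where its reads end. A read appears to be counted for 1 entry of its own length. The 21-nt form of miR-26a-5p lies wholly within the 22-nt mouse entry, yet it had 4212 reads against 78540. Reads with another last base were therefore found under other species' entries. The table holds 161 entries named miR-26, miR-26a or miR-26b, of 48 distinct sequences, and 12 of these sequences lie in a mouse miR-26 hairpin at the place of a member. Of these 12, 10 had reads. All of them start at the first base of the mouse entry, so no form with a shifted seed was counted, and 0 forms with another start were listed. The counted forms of the 5p arms are shown in the letters of the table, with bases after position 20 in capitals, because the family's members differ in their ends.
miR-26a-5p, 20 nt: ttcaagtaatccaggatagg
miR-26a-5p, 21 nt: ttcaagtaatccaggataggC
miR-26a-5p, 22 nt, mouse entry: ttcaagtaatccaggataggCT
miR-26a-5p, 25 nt: ttcaagtaatccaggataggCTGTG
miR-26b-5p, 21 nt, mouse entry: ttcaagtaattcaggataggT
miR-26b-5p, 22 nt: ttcaagtaattcaggataggTT
miR-26b-5p, 24 nt: ttcaagtaattcaggataggTTGT
All 7 are found letter for letter in the mouse hairpins, so a uridine added after processing cannot be told apart from the hairpin's own base here. No entry was listed for a form of 23 nt, for both arms, or of 20 nt, for miR-26b-5p, so reads of these lengths had no entry of their own. Whether such reads were left out or given to an entry of another length was not tested.

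Among the lengths counted, both 5p arms were mostly 22 nt long, but only for miR-26a-5p is that the mouse entry. For miR-26a-5p the 22-nt form held 83.4% (83.2 to 83.7) of the 94134 reads of the arm. Its 20-nt form came next with 11382 reads, 12.1% (11.9 to 12.3), and outnumbered the 21-nt form, with 4212 reads or 4.47%, by 2.70 to 1 (2.61 to 2.80). Among the lengths counted, the arm thus had 2 frequent ends, 2 nt apart, with fewer reads at the base between them. The 25-nt form had 0 reads, with an exact upper limit of 0.00392% of the arm.

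For miR-26b-5p the 22-nt form had 9634 reads, 79.3% (78.5 to 80.0) of the 12152 reads of the arm, and the 21-nt mouse entry held 20.6% (19.9 to 21.3). The 24-nt form had 13 reads, or 0.107%. Of reads of 21 or 22 nt, the shorter form made up 5.09% (4.94 to 5.24) in miR-26a-5p and 20.6% (19.9 to 21.4) in miR-26b-5p. These intervals do not overlap. In these 22 bases the 2 arms differ by C11T and C21T alone, and the base that follows both 21-nt forms is T.

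**Figure D2:**
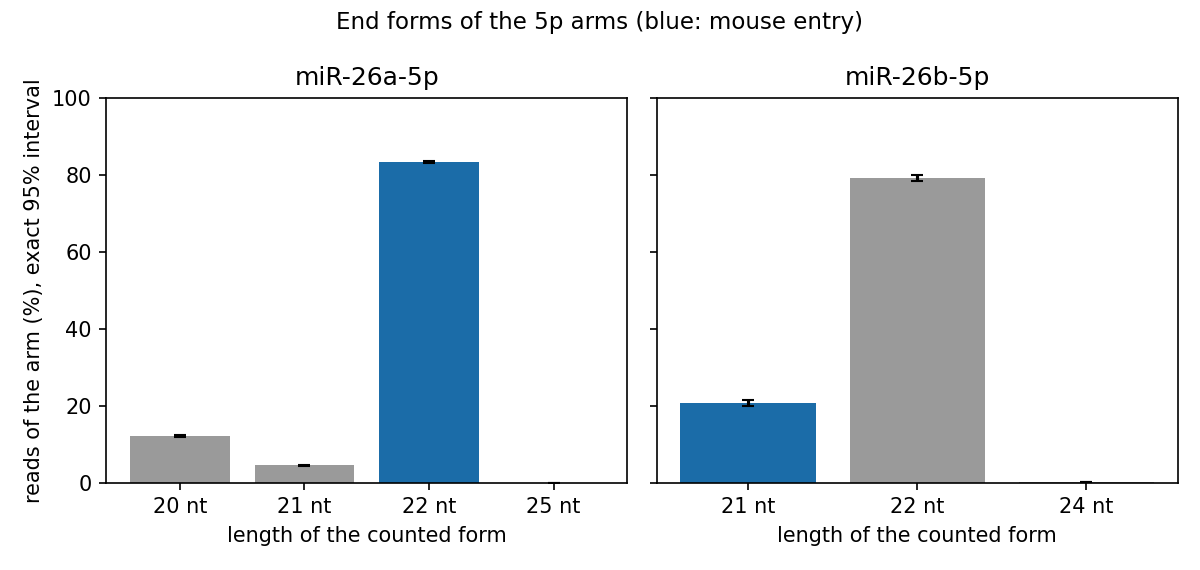
Reads of each counted length (x axis) as a percentage of the reads of the arm (y axis), for miR-26a-5p on the left and miR-26b-5p on the right, with exact 95% intervals and the mouse entry in blue. The 22-nt bar is the highest in both, at 83.4% and 79.3%, but it is the mouse entry only in miR-26a-5p.

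The ratio of miR-26a to miR-26b changed with the ends counted. By mouse entries, which set the major form of miR-26a-5p against a minor form of miR-26b-5p, there were 31.4 reads of miR-26a-5p per read of miR-26b-5p (30.1 to 32.6). With end forms the ratio was 7.75 (7.60 to 7.89), and between the 22-nt forms alone it was 8.15 (7.98 to 8.33). The first of these sums unlike lengths, since a 20-nt form, with 11382 reads, was counted for miR-26a-5p only. The 21-nt and 22-nt forms, which both arms have, held 82752 and 12139 reads. Between the 21-nt forms it was 1.68 (1.60 to 1.77). miR-26a-5p was the higher member in each of these countings. With end forms miR-26b-5p rose from rank 46 to 27, with 0.151% of the reads, between miR-194-5p with 18596 and miR-133a-3p with 11609. miR-26a-5p went from rank 9 to 13, between miR-127-3p with 96047 and miR-206-3p with 87964, as arms such as miR-30a-5p and miR-378a-3p passed it. The share of miR-26b-5p in the family was 3.09% by mouse entries and 11.4% with end forms.

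The 2 arms stood far apart when set beside other abundant miRNAs. Over the 28 mouse arms with at least 10000 reads including end forms, the median share of reads on the mouse entry was 77.1%, with under 50% in 12 arms and over 90% in 5. miR-26a-5p, at 83.4%, was at rank 10 from the top, next to let-7f-5p with 84.6% and miR-143-3p with 83.4%. miR-26b-5p, at 20.6%, was at rank 6 from the bottom, between miR-194-5p with 21.6% and miR-30d-5p with 19.9%. Like miR-30d-5p, miR-30a-5p and miR-21a-5p, miR-26b-5p had most of its reads on forms that end after the mouse entry, 79.4% of the arm against 79.5%, 71.2% and 87.4%. In 23 of these arms 21-nt and 22-nt forms with the same start could be compared, and the 22-nt form was the larger in 16. On this measure the miR-26 arms were less far apart, with 94.9% of such reads at 22 nt for miR-26a-5p, rank 5, and 79.4% for miR-26b-5p, rank 12. How far a mouse entry captures its arm depends on which ends the entries of all species record, and these differ between arms.

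**Figure D3:**
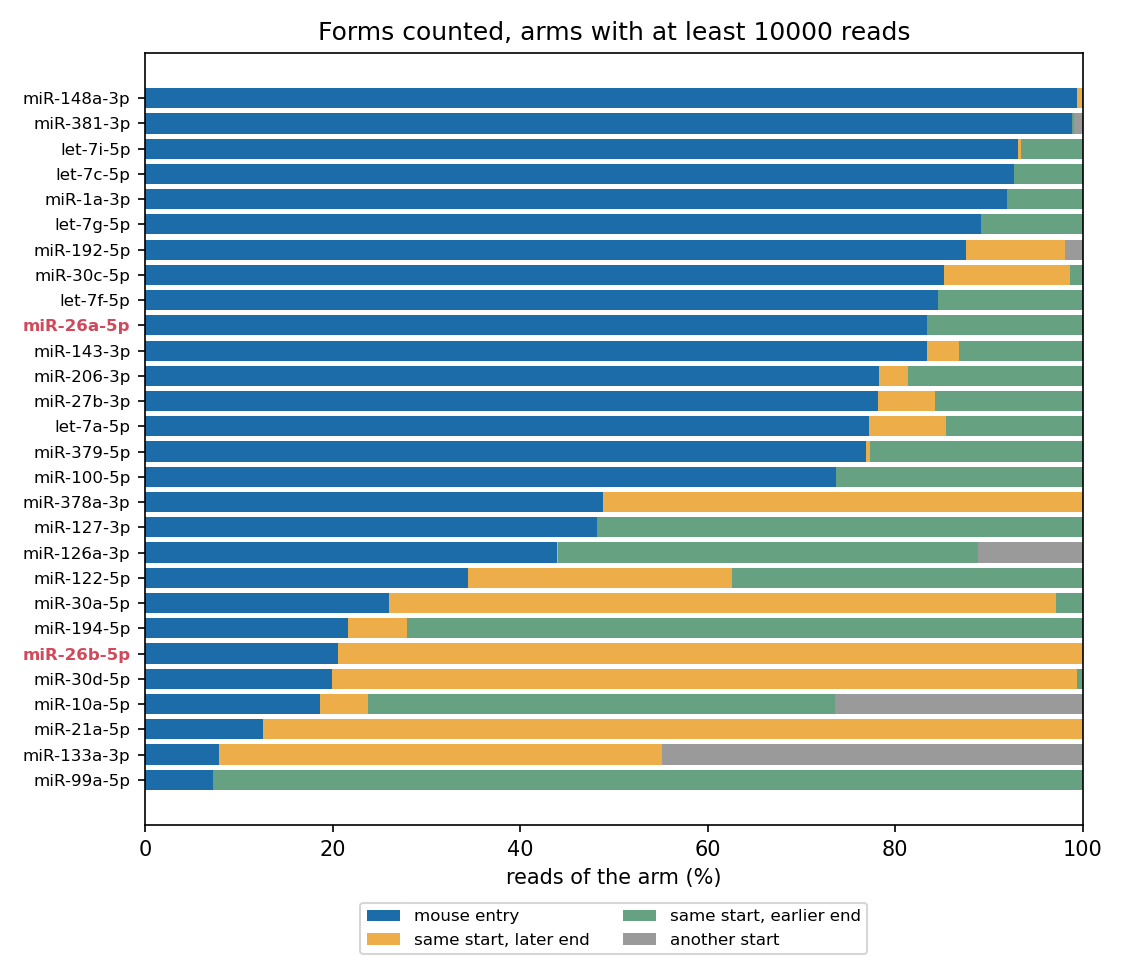
Reads of each of the 28 mouse arms with at least 10000 reads, as a percentage of the arm, divided into the mouse entry, forms that end later or earlier from the same start, and forms with another start. The labels of miR-26a-5p and miR-26b-5p are red, and their mouse entries hold 83.4% and 20.6%.

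The copies of miR-26a can be told apart by their 3p arms only. Mir26a-1 and Mir26a-2 give an identical 5p arm, and the hairpins stay identical for 3 bases after it, so even the 25-nt form could come from either. On the 3p side, which differs at 6 of 22 bases, copy 2 in Ctdsp2 had 20 reads and copy 1 in Ctdspl had 4. There were thus 5 reads of miR-26a-2-3p per read of miR-26a-1-3p (1.67 to 20.1), or 83.3% of 24 reads from copy 2 (62.6 to 95.3). A 21-nt form of miR-26a-1-3p had 0 reads, so the ratio was the same with end forms. The interval excludes equal counts of reads. The counts are of the strand that is mostly discarded, and ligation and strand stability can differ between these sequences, so they do not divide the 78540 reads of miR-26a-5p between the copies.

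Unequal copies were usual in this library. In the same way, 8 other pairs of mouse entries named as copies 1 and 2 of a miRNA had at least 10 reads in all. The pairs of let-7a-3p and let-7c-3p were left out, since a member of each has the sequence of an entry of another name. In each of the 8 pairs the interval of the share of copy 2 also excluded equal counts, with copy 2 higher in 4 and copy 1 higher in 4. Among the 7 in which both copies had reads, the higher copy exceeded the lower by a median of 37.0-fold by mouse entries, from 1.57-fold in miR-181a-3p to 168-fold in miR-194-3p (29.7 to 6675, from 1 read of its lower copy). With end forms the median was 12.5-fold and the range 1.70-fold to 194-fold (34.4 to 7702), in the same pairs. With end forms 9 other pairs had at least 10 reads, with copy 2 higher in 4 and copy 1 higher in 5. In both countings 6 of the 7 ratios exceeded that of miR-26a, and that of miR-181a-3p was below it, though several of their intervals, miR-181a-3p included, overlap that of miR-26a. The nearest to miR-26a was miR-365-5p, with 12 reads of copy 2 and 2 of copy 1.

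**Figure D4:**
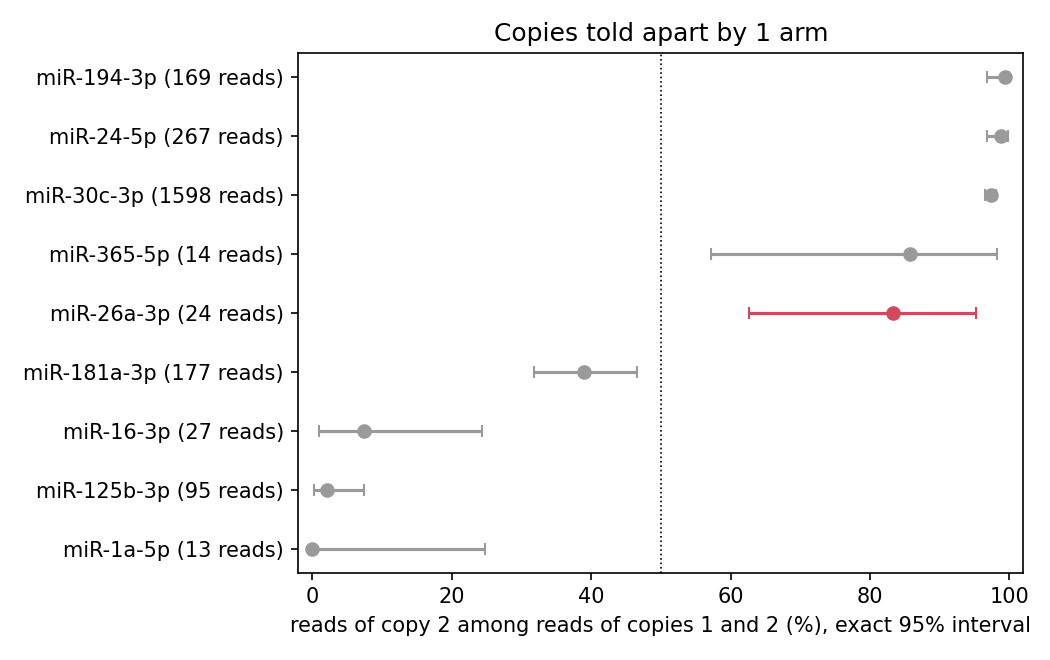
Reads of copy 2 as a percentage of the reads of copies 1 and 2 (x axis, exact 95% intervals), for 9 pairs of mouse entries with at least 10 reads, whose totals stand in parentheses. miR-26a-3p, in red, is at 83.3%, and the dotted line marks equal counts.

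The strong bias to the 5p arm was shared by miR-26a and miR-26b. There were 3272 reads of miR-26a-5p per read of the 3p arms of both copies (2199 to 5108). For miR-26b the ratio was 2505 (449 to 98981), from 1 read of miR-26b-3p. With end forms miR-26b-3p gained 1 read, under a 21-nt form, and the ratios were 3922 (2636 to 6122) for miR-26a and 6076 (1682 to 50177) for miR-26b. The intervals overlap in both countings, so a difference in arm bias between miR-26a and miR-26b was not detectable at this depth. Mouse hairpins whose larger arm had at least 1000 reads were ordered by the ratio of larger to smaller arm, with every smaller arm under the floor of 3 reads set to 3. Apart from miR-26a, whose 3p arms were summed, miRNAs with copies named apart on 1 arm were not ordered. Among these were miR-1a, with 980271 reads against 13 and 0 of its copies' 5p arms, and let-7f, with 231073 against 1 and 0. By mouse entries both would stand above miR-26a. The ranks, medians and counts that follow are of the hairpins ordered. By mouse entries miR-26a was at rank 8 of 57 and miR-26b at rank 21, and with end forms they were at ranks 10 and 9 of 73. The position of miR-26b thus rests on 1 or 2 reads and on the floor. The median of the other hairpins was 463 by mouse entries and 89.97 with end forms, and both miR-26 ratios were above it in both countings. The 5p arm was the larger in 34 of 55 other hairpins by mouse entries and in 41 of 71 with end forms. The bias was less extreme in miR-30d, with 287 reads of the 5p arm per read of the 3p arm by mouse entries and 759 with end forms. In miR-30a the ratios were 13.4 by mouse entries (12.8 to 14.0) and 23.4 with end forms (22.8 to 24.1). In miR-30e the larger arm changed with the counting, from 4.84 reads of the 3p arm per read of the 5p arm by mouse entries (4.32 to 5.44) to 1.79 reads of the 5p arm per read of the 3p arm with end forms (1.70 to 1.88). In let-7d, where the 5p arm was the larger, the ratios were 2.70 (2.55 to 2.86) and 2.79 (2.65 to 2.94). Other let-7 members were on both sides of miR-26a. By mouse entries let-7i and let-7g were at ranks 2 and 3, and let-7b, let-7e and miR-98 at ranks 17, 39 and 41. With end forms the ratios were 11945 (6495 to 24910) in let-7i and 25600 (9998 to 93957) in let-7g.

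Both members were also placed among 21 miRNAs that lie in introns of protein-coding genes, a list that includes them. Of these 21, 19 had reads, and together they held 341879 reads or 5.13% of mouse reads, with a median of 0.00673%. The median over all mouse sequences was 0, since most had no read. miR-26a-5p was at rank 2 of the list, after let-7g-5p of Wdr82 with 1.37% and before miR-378a-3p of the metabolic coactivator gene Ppargc1b with 0.908% and miR-126a-3p of the endothelial gene Egfl7 with 0.891%. With end forms the last 2 passed both, at 1.54% and 1.68% against 1.27% for let-7g-5p and 1.17% for miR-26a-5p. miR-26b-5p was at rank 9 by mouse entries and at rank 6 with end forms. For miR-30c-5p, with 22920 reads, the list names Nfyc alone as host. Yet miR-30c has copies 1 and 2, with 42 and 1556 reads of their 3p arms by mouse entries. The part of its 5p reads that comes from Nfyc was not tested, and all of them are in the 5.13%. miR-103-3p and miR-107-3p, from introns of the pantothenate kinase genes and thus also from a host gene family, had 7042 and 156 reads, or 8045 and 347 with end forms. The mouse entry held 87.5% of the reads of miR-103-3p and 45.0% of those of miR-107-3p, and as in miR-26 it was the less abundant member whose mouse entry captured less. miR-33-5p of Srebf2, a regulator gene of cholesterol synthesis, and miR-208a-3p of Myh6 had 0 reads, with an exact upper limit of 5.54e-05% of mouse reads. The reads of the host mRNAs were not analysed here.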

How the data were processed

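Small RNA libraries were made from total liver RNA by adapter ligation and PCR and sequenced as single reads, per the labels' protocols. The deposited table gives raw counts of whole reads per mature miRNA entry of 271 species codes (48885 entries), from the cleaned reads of 1 library, per the file headers. Its column is named like replicate 2 of Cre-miR122 and like no other sample, and 0 columns were unmatched. Which program counted the reads, with which settings and list release, is not given in the sources used here. Per the submitters' processing notes the build is mm10.

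Entries of identical sequence had equal counts (0 exceptions) and were counted once. A longer entry had more reads than an entry at its start, up to 5 nt shorter, in 809 of 1726 pairs with reads, which would not occur if reads counted for every entry they contain. Other rules that give a read to 1 entry were not tested. End forms are entries of other species named miR-26, miR-26a or miR-26b that lie in a mouse hairpin at the place of a member. For other arms any entry was taken that lies in 1 of the 2202 miRNA hairpins of GENCODE M21 (GRCm38) and overlaps the same mouse sequence most, by at least 15 nt, at every place found. Shares with end forms use the 8032202 reads of mouse sequences and end forms as the total. The 95% intervals are Clopper-Pearson for shares and, for ratios, exact binomial given the sum of both counts. Tested on 5 simulated libraries with the shares of the real one and 200 sequences changed, 95.6% of share intervals of 303 sequences and 94.6% of ratio intervals held the true value. The simulated counts varied by random sampling of reads alone, so this checks the calculation and not PCR copies or the spread between libraries. Of 149 simulated sequences with shifted ends, cut from the same hairpins that serve for assignment, 98.7% were assigned correctly and 0% wrongly.

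The members, lists and comparisons were chosen with earlier results of these data known. Named are all members, end forms and pairs of copies with at least 10 reads (none that shares a sequence with an entry of another name), sequences of the same seed, the intronic list, markers and the most like families. Neighbours in rank, other abundant arms and forms under 10 reads were named after their values were seen. Alternatives were other denominators, end forms added, end forms by hairpin match, with at least 10 reads or from the first base. Forms of equal length, substituted forms and a denominator without striated muscle markers were added after seeing the data. The software was Python 3.11.15 with SciPy 1.17.1, NumPy 2.4.6, pandas 2.3.3 and matplotlib 3.10.9.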

Additional observations from a re-analysis of the deposited data

Results flagged for a closer look

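Reads under miR-26 entries of other species that lie in no mouse miR-26 hairpin are outside the values above and exceed the floor of 3 reads. The entries named miR-26, miR-26a or miR-26b among them had 37 reads over 2 sequences. One, with 16 reads, is miR-26a-5p with T10C, 0.0204% of the reads of both (0.0116 to 0.0331). The other, with 21 reads, differs from the 22-nt form of miR-26a-5p by C21T (0.0267% of the reads of both) and from that of miR-26b-5p by T11C (0.218%, 0.135 to 0.332), so its source cannot be told apart. An entry of salmon named miR-26d-5p, outside the naming rule and singled out after its value was seen, had 141 reads. It is miR-26a-5p with C12T, 0.179% of the reads of both (0.151 to 0.211). Among 33 entries that differ from a mouse sequence of at least 10000 reads by 1 substitution outside the last 2 bases, this share was the highest, ahead of A1G in miR-100-5p with 0.110% (0.0675 to 0.170), and the median was 0.0131%. Positions count from the 5' end. The genome outside the annotated hairpins was not searched, and no cause was tested.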

How the results depend on the processing

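Of 18 alternatives for 7 results, 11 stayed within the counting interval of the value given above and 7 moved beyond it. The 1.22% of the family became 0.993% of the reads over all distinct sequences, 2.89% without miR-148a-3p in the denominator, 1.32% with end forms and 1.44% without the striated muscle markers in the denominator, moves that follow from the reads each setting adds or removes. The ratio of miR-26a-5p to miR-26b-5p became 7.75 with end forms, 8.15 between 22-nt forms and 1.68 between 21-nt forms, in place of 31.4, and stayed above 1. The ratio of the copies, the ratios of 5p to 3p and the shares of the mouse entries in their arms stayed within their intervals under every alternative run for them. Several of these alternatives could not move a value. All forms in the hairpins bear a miR-26 name and start at the first base, and the only 5p form under 10 reads had 0. The settings by hairpin match, at least 10 reads and first base thus changed no share. For the copies the form added had 0 reads. Forms of equal length, substituted forms and the denominator without striated muscle markers were chosen after seeing the data. No paired analysis was possible because counts of a single library were used, and for the same reason no replicate could be left out. Depth limits the 3p arms, with 25 reads of the mouse entries in all, and the bias and copy ratios that rest on them.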
